A study of Homo sapiens with 15 samples.

Results

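The 10 genes described here belong to the YAP/TAZ and TEAD pathway. They are the co-activators YAP1 and WWTR1 (the gene of TAZ), 3 genes of their DNA-binding partners, TEAD1, TEAD2 and TEAD4, and 5 genes widely used as YAP/TAZ targets, ANKRD1, CCN1 (also CYR61), CCN2 (also CTGF), AMOTL2 and LATS2. They were chosen by gene symbol from the 48777 genes of the count table, and each symbol matched 1 gene. The question asked of them was whether ANKRD1, a YAP target that is also a cardiac muscle gene, followed the other targets or the sarcomere genes during cardiac differentiation.

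YAP and TAZ do not bind DNA themselves and act through the TEAD proteins. The kinases of the Hippo pathway phosphorylate YAP and TAZ and hold them in the cytoplasm, whereas spreading, stretch and low cell density favor their entry into the nucleus, so that much of the regulation takes place in the protein and is not seen in transcript levels. In the developing heart, YAP acting with TEAD1 is known for its role in cardiomyocyte proliferation.

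Bulk RNA was sequenced from H1, an established line of human embryonic stem cells, on days 0, 4, 9, 11 and 20 of differentiation toward cardiac progenitors, with 3 libraries labelled as biological replicates on each day. Day 0 cells were in Nutristem medium, and the labels put every group on the laminins LN-521 and LN-221, whereas the deposited sample table lists LN-521 alone for day 0. By the treatment notes, CHIR99021, a GSK3 inhibitor that activates Wnt signaling, was given at confluence on day 4 and IWP2, an inhibitor of Wnt secretion, on day 7, both in RPMI with B27 lacking insulin. The growth notes of the same labels give earlier days for both compounds, and whether the day 4 cells were collected before or after CHIR99021 is not given in the sources used here. Replicates are numbered in the order of the sample list, so a number does not link libraries of different days.

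The libraries held 11990302 to 33469703 counts. RNA integrity numbers were 8.8 to 10, except 6.1 in day 20 replicate 2, which also listed 48230 genes with a count where the other 14 libraries listed 30886 to 39551. The summed level of 6 pluripotency markers was 6095 to 8829 TPM (transcript abundance corrected for gene length) on day 0 and 97.8 to 132 TPM on day 20. That of 6 cardiomyocyte markers was 13.2 to 17.9 TPM on day 0 and 785 to 3603 TPM on day 20. The day 20 libraries were mixed, with 3211, 1219 and 24486 TPM of 8 mesenchymal and fibroblast markers and 18665, 955 and 22200.4 TPM of 8 endoderm and epithelial markers in replicates 1 to 3. In such bulk samples, fewer cells of a type and less RNA per cell cannot be told apart.

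The 10 genes fell into 3 kinds of time course. ANKRD1 rose from below 1 CPM (read counts scaled to library size) on days 0 and 4 to 241 ± 162 CPM (SD, n = 3) on day 9. YAP1, WWTR1, TEAD1, CCN1 and AMOTL2 rose over the same interval, by 1.84-fold (CCN1) to 7.54-fold (AMOTL2). TEAD2 was lower on day 20 than on day 0, and CCN2, LATS2 and TEAD4 passed the test in no comparison of 2 days. In the test for any difference among the 5 days (edgeR's quasi-likelihood F-test over all 15 libraries), 7 of the 10 genes passed an adjusted p of 0.05, where 50.4% of 24767 genes did. CCN1 (adjusted p = 0.292), CCN2 (0.45) and LATS2 (0.521) did not pass.

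**Figure D1:**
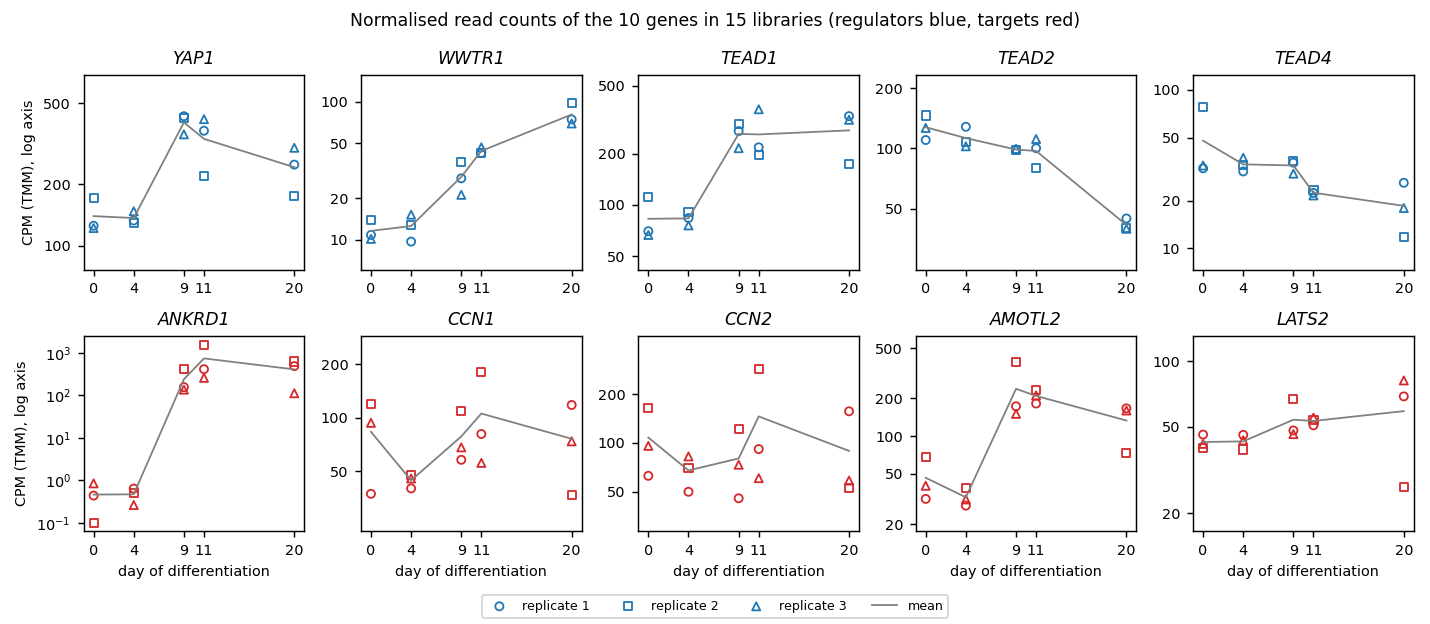
Normalised read counts (CPM after TMM scaling, logarithmic axis, a range of its own in each panel) of the 10 genes by day of differentiation, with 1 symbol per library and a line through the day means. ANKRD1 spans from 0.10 CPM in a day 0 library to 1563 CPM in a day 11 library, whereas LATS2 stays between 26.4 and 81.8 CPM.

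The share of the 10 genes that changed was read against that of all genes. Between days 0 and 4, neither edgeR nor DESeq2 called any of the 10, and 0% of 20964 genes were called at all. Of the 10, CCN1 alone had an unadjusted p under 0.05 (3.53% of all genes, 741 genes by edgeR and 703 by DESeq2), and no gene of the 10 had libraries that stood wholly above (6.24%) or below (3.96%, 10.2% together). Between days 4 and 9, 6 of the 10 rose and none fell, where 49% of 21252 genes changed, 24.3% up and 24.7% down. In that step the libraries did not overlap for 7 of the 10 genes upward (27.6% of all genes) and for TEAD2 downward (32.3%, 59.8% together), and 7 had an unadjusted p under 0.05 (56.1%).

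None of the 10 was called from day 9 to day 11, where 2.39% of 20679 genes were (1.39% up and 1% down). WWTR1 was higher (12.2% of all genes) and TEAD4 lower (11.5%, 23.7% together) in every library, and these 2 had an unadjusted p under 0.05 (17%). None was called from day 11 to day 20 either, where 1.55% of 21398 genes were (1.12% up and 0.435% down). WWTR1 was higher (11%) and TEAD2 and AMOTL2 lower (11.3%, 22.3% together) in every library, and 2 had an unadjusted p under 0.05 (16.7%). Between days 0 and 20, 4 rose (16.1% of all genes) and TEAD2 fell (11.3%), against 27.4% of 21988 genes in both directions. The libraries did not overlap for 5 genes upward (23.1%) and 2 downward (23.5%, 46.6% together), and 7 had an unadjusted p under 0.05 (39.8%). Consecutive comparisons share the libraries of a day, and an exact permutation test of 3 libraries against 3 cannot go below p = 0.1.

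YAP1, the gene of the co-activator YAP (chr11:102110447-102233424, plus strand, GRCh38), was at 125, 172 and 122 CPM on day 0 and at 133, 129.6 and 148 CPM on day 4. It then had 431, 424 and 351 CPM on day 9, 366, 219 and 417 CPM on day 11 and 249.8, 176 and 302 CPM on day 20. All libraries of day 9 lay above those of days 0 and 4, and replicate 2 was the lowest on days 11 and 20. The rise from day 4 to day 9 had a log2 fold change of 1.61 (SE 0.13, adjusted p = 3.93e-05). Within the 3 sequencing lanes that held 1 library of each of these days, it was 1.40 to 1.73 on the log2 scale. On day 20 YAP1 was 1.78-fold its day 0 level, which missed the threshold (log2 0.83, SE 0.29, adjusted p = 0.0659). Without day 20 replicate 2, the library of low RNA integrity, the difference was 0.99 and passed (adjusted p = 0.0133).

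WWTR1, the gene of the second co-activator TAZ (chr3:149517235-149736714, minus strand), was the regulator that went on rising. It was at 10.8, 13.8 and 10.2 CPM on day 0, 9.70, 12.8 and 15.2 CPM on day 4 and 27.9, 36.8 and 21.2 CPM on day 9. It reached 42.7, 42.7 and 46.8 CPM on day 11 and 74.7, 98.7 and 69.8 CPM on day 20. At each of the 3 steps from day 4 on, every library of the later day was above every library of the earlier one. The increase passed the test from day 4 to day 9 (log2 1.24, SE 0.24, adjusted p = 0.0032) and from day 0 to day 20 (log2 2.85, SE 0.29, adjusted p = 0.000606), but not from day 9 to day 11 (0.61, SE 0.21, adjusted p = 0.19) or from day 11 to day 20 (0.92, SE 0.25, adjusted p = 0.117). DESeq2 and the fit of all 15 libraries called the last of these steps (adjusted p = 0.0279 and 0.0254).

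The 3 TEAD genes moved apart from each other. TEAD1 (chr11:12674421-12944737, plus strand), known to be needed for heart growth in the embryo, had 70.0, 112 and 66.5 CPM on day 0 and 83.7, 90.4 and 75.7 CPM on day 4. It had 271, 297 and 215 CPM on day 9, 218, 196 and 364 CPM on day 11 and 332, 174 and 316 CPM on day 20. The early and late libraries did not overlap, and the means of the last 3 days lay between 259 and 274 CPM. The step from day 4 to day 9 was 1.70 (SE 0.15, adjusted p = 5.23e-05) on the log2 scale and 1.36 to 1.97 within lanes. Day 20 was above day 0 by 1.76 (SE 0.34, adjusted p = 0.00751), a call that was lost without day 0 replicate 1 or 3 (adjusted p = 0.0646 and 0.0909) and with no filter on low counts (0.055).

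TEAD2 (chr19:49340595-49362457, minus strand), a TEAD gene of the early embryo, went down. It had 110.1, 146 and 127 CPM on day 0, 128, 107 and 102 CPM on day 4, 98.8, 97.9 and 99.4 CPM on day 9 and 100.3, 79.6 and 111 CPM on day 11. On day 20 the libraries had 44.8, 40.2 and 39.8 CPM, all below every earlier library. The log2 fold change from day 0 to day 20 was -1.57 (SE 0.24, adjusted p = 0.00288). The step from day 11 to day 20 was -1.19 (SE 0.24), with an adjusted p of 0.0542 that missed the threshold. It passed without day 20 replicate 2 (adjusted p = 0.0496), with DESeq2 (0.000629) and in the fit of all 15 libraries (0.000859).

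TEAD4 (chr12:2959330-3040676, plus strand), best known for its part in forming the trophectoderm, had 32.0, 78.1 and 33.4 CPM on day 0, 30.6, 33.8 and 37.3 CPM on day 4 and 34.8, 35.7 and 29.6 CPM on day 9. It had 22.4, 23.4 and 21.6 CPM on day 11 and 25.9, 11.7 and 18.0 CPM on day 20. All libraries of day 11 were below those of day 9, and those of day 20 below those of day 0, yet the log2 fold changes of -0.59 (SE 0.14, adjusted p = 0.0858) and -1.32 (SE 0.43, adjusted p = 0.0521) missed the threshold. DESeq2 called both (adjusted p = 0.0174 and 0.0225). The high day 0 library, replicate 2, was also the highest of that day in CPM for YAP1, WWTR1, TEAD1, TEAD2, CCN1, CCN2 and AMOTL2. It was the lowest for ANKRD1 and LATS2. Without this library the change of TEAD4 from day 0 to day 4 turned from -0.50 to 0.017.

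In length-corrected units, the order of TEAD1 and TEAD2 reversed over the time course. TEAD2 was at 151 ± 23.6 TPM on day 0 and 61.2 ± 12.3 TPM on day 20, and TEAD1 at 28.3 ± 9.70 and 111 ± 16.2 TPM (SD, n = 3). Every library of day 0 had more TEAD2 than TEAD1, and every library of day 20 had more TEAD1 than TEAD2. On day 11 the means were 125 TPM for TEAD2 and 95.6 TPM for TEAD1, with overlapping ranges. Within each single library of days 9 and 11, TEAD2 was still above TEAD1. WWTR1 stayed below YAP1 on every day, at 4.89 against 78.7 TPM on day 0 and 43.6 against 164 TPM on day 20.

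A list of 18 other genes of the Hippo pathway, its kinases and scaffolds, TEAD cofactors and TEAD3, was mixed between day 4 and day 9. Of these, 7 rose, 4 fell and the others did not pass the test, and the median log2 fold change was 0.19, beside 0.013 over all genes. The largest increases were in AMOT (3.73, SE 0.20) and AMOTL1 (3.11, SE 0.16), relatives of AMOTL2 whose proteins bind YAP at junctions and in the cytoplasm, and in the scaffold gene FRMD6 (1.37, SE 0.19). All 3 angiomotin genes thus rose. The largest decreases were in VGLL3 (-3.75, SE 0.22), a TEAD cofactor, and in the scaffold genes WWC1 (-0.82, SE 0.19) and SAV1 (-0.72, SE 0.12). No gene of the list was called from day 0 to day 4. FAT4 alone rose from day 9 to day 11 (1.06, SE 0.15) and VGLL3 alone from day 11 to day 20 (3.85, SE 0.65). From day 0 to day 20, 4 rose, led by AMOT (2.89, SE 0.61), and SAV1 fell (-1.41, SE 0.33), with a median of 0.10 beside 0.11 over all genes. MAP4K4, a kinase upstream of LATS, had the highest mean level of the list, with 104 TPM on day 0 and 129 TPM on day 20.

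The 5 target genes differed widely from each other. Their upstream sequences are shown because some hold the letters that TEAD proteins are known to recognise, GGAATG or, on the other strand, CATTCC, and some do not. The windows are the 250 bases before a transcription start in RefSeq (GRCh38.p14), written 5′ to 3′ on the gene's own strand in lower case, with these letters in capitals. Windows were found for 7 of the 10 genes, and none for CCN1, TEAD1 and TEAD4. The windows of the 3 targets with a match read as follows.
ANKRD1, chr10:90921088-90921337, minus strand: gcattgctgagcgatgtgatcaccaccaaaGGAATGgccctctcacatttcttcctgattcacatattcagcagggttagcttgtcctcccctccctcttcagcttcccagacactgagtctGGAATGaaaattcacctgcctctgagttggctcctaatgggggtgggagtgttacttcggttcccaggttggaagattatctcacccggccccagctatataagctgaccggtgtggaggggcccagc
CCN2, chr6:131951373-131951622, minus strand: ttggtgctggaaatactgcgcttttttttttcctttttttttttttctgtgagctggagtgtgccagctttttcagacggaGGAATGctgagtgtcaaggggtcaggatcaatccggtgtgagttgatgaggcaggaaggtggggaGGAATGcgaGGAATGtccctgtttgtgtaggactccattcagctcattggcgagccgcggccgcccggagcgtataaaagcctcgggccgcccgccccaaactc
AMOTL2, chr3:134374448-134374697, minus strand: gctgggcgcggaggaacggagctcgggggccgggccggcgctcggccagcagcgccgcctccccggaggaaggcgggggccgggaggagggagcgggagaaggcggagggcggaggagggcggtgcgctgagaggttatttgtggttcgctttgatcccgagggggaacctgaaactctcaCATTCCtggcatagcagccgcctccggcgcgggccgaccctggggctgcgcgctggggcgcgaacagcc

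ANKRD1 held GGAATG at 2 places, beginning 220 and 128 bases before the start, and CCN2 at 3 places, beginning 169, 104 and 95 bases before it. AMOTL2 held CATTCC 69 bases before 1 of its 2 starts and neither form before the other, and LATS2 held neither. Among the regulators, YAP1 held GGAATG once, 162 bases before its start, and the windows of WWTR1 and TEAD2 held none. Of all 35116 RefSeq windows of this length, 11.9% held at least 1 match on either strand, 0.94% at least 2 and 0.0826% at least 3. No window of the 10 genes held a CArG box, the letters bound by the serum response factor SRF, which 1.16% of all windows and 5 of 21 windows of sarcomere genes held. The targets with repeated matches were the one with the steepest rise, ANKRD1, and one with no called change, CCN2.

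ANKRD1 (chr10:90912096-90921087, minus strand) encodes the cardiac ankyrin repeat protein CARP, which binds titin in the sarcomere and is also found in the nucleus. It had 0.436, 0.10 and 0.847 CPM on day 0 and 0.638, 0.504 and 0.262 CPM on day 4, from 3 to 19 raw counts per library. On day 9 it had 157, 428 and 137 CPM, on day 11 416, 1563 and 259.9 CPM and on day 20 491, 631 and 113 CPM. The libraries of days 0 and 4 lay far below all others, whereas those of days 9, 11 and 20 overlapped. From day 4 to day 9 the log2 fold change was 9.01 (SE 0.65, adjusted p = 3.70e-05), and 7.56 to 10.26 within lanes. It was 10.02 (SE 1.03, adjusted p = 0.000686) from day 0 to day 20. Both start from few counts, so their size is imprecise.

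After day 9 no change of ANKRD1 passed the test. The step from day 9 to day 11 was 1.62 (SE 0.74, adjusted p = 0.332) on the log2 scale, fell to 0.48 without day 11 replicate 2 and ranged from -0.72 to 3.31 within lanes. The step from day 11 to day 20 was -0.81 (SE 0.81, adjusted p = 0.679), turned to 0.28 without day 11 replicate 2 and ranged from -3.79 to 1.28 within lanes. In TPM, ANKRD1 was the lowest of the 10 genes on days 0 and 4 (0.786 and 0.861) and had the highest mean from day 9 on, with 470.5 ± 351 on day 9, 1474 ± 1429.5 on day 11 and 982 ± 776 on day 20 (SD, n = 3). Its libraries were above those of all the other 9 genes on day 11. On day 9 they overlapped those of YAP1 and AMOTL2, and on day 20 its lowest library, at 216 TPM, lay below the highest of CCN2, at 259 TPM. Within each single library of days 9, 11 and 20, however, ANKRD1 was above all the other 9 genes.

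AMOTL2 (chr3:134355347-134375479, minus strand), a junction protein of the angiomotin family that restrains YAP, was the other target with a large rise. It had 31.7, 67.8 and 40.3 CPM on day 0, 28.0, 38.6 and 31.4 CPM on day 4, 172, 389 and 150.1 CPM on day 9, 181, 234 and 210.3 CPM on day 11 and 166, 73.1 and 159.6 CPM on day 20. Every library of day 9 or later was above every earlier one. The rise from day 4 to day 9 was 2.91 (SE 0.38, adjusted p = 0.000575), and 2.16 to 3.63 within lanes. Day 20 was above day 0 by 1.55 (SE 0.40, adjusted p = 0.0225), a call lost without day 0 replicate 1 (adjusted p = 0.124) or replicate 3 (0.151), without day 20 replicate 1 (0.058) or replicate 3 (0.0743), and with no filter (0.0976). All libraries of day 20 were below those of day 11, with a log2 fold change of -0.63 (SE 0.34, adjusted p = 0.413) that missed the threshold.

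CCN1 (chr1:85580761-85584589, plus strand) encodes a secreted matricellular protein and is among the most widely used readouts of YAP activity. It had 37.3, 119 and 93.6 CPM on day 0, 40.0, 47.7 and 45.5 CPM on day 4 and 58.0, 109 and 68.1 CPM on day 9. On day 11 it had 81.0, 179.9 and 55.7 CPM, and on day 20 118, 36.7 and 73.7 CPM. Among the 5 comparisons, the libraries stood apart only between days 4 and 9. That step, 0.88 on the log2 scale (SE 0.23), passed at an adjusted p of 0.0135, but not in the fit of all 15 libraries (0.243) or without day 4 replicate 1 (0.0575). It was 0.28 to 1.26 within lanes. Day 20 differed from day 0 by -0.10 (SE 0.50, adjusted p = 0.908), and the sign turned without day 20 replicate 2 (0.22).

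CCN2 (chr6:131948176-131951372, minus strand), the gene of connective tissue growth factor, had no called change in any of the 5 comparisons. It had 62.5, 165 and 95.7 CPM on day 0, 49.8, 70.2 and 82.3 CPM on day 4, 45.4, 121 and 73.2 CPM on day 9, 91.4, 285 and 60.5 CPM on day 11 and 156, 52.3 and 58.5 CPM on day 20. The libraries overlapped at every step. Its log2 fold change was -0.67 (SE 0.33) from day 0 to day 4, 0.30 (SE 0.35) to day 9, 0.85 (SE 0.61) to day 11 and -0.69 (SE 0.64) to day 20. Without day 11 replicate 2 the step from day 9 to day 11 was -0.088.

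LATS2 (chr13:20973036-21061586, minus strand), a Hippo kinase whose transcription YAP is known to raise, passed the test in no comparison. It had 46.0, 39.9 and 41.7 CPM on day 0, 45.9, 39.3 and 43.3 CPM on day 4, 48.1, 67.4 and 46.3 CPM on day 9, 50.8, 53.7 and 55.1 CPM on day 11 and 69.0, 26.4 and 81.8 CPM on day 20. All day 9 libraries were above those of day 4 (log2 0.39, SE 0.16, adjusted p = 0.0733), a step that passed without day 9 replicate 3 (adjusted p = 0.0247). Day 20 replicate 2, the library of low RNA integrity, had the lowest value of all 15. Without it LATS2 passed the test from day 0 to day 20 (log2 0.83, adjusted p = 0.0165) and the test for any difference among days (0.00544).

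**Figure D2:**
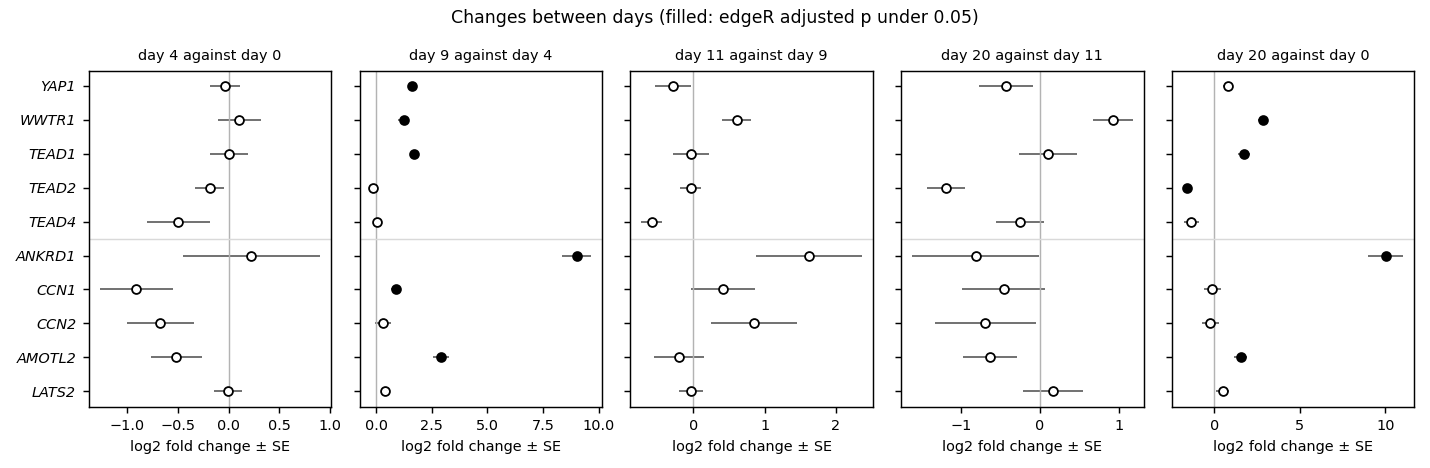
Log2 fold change of each of the 10 genes in the 5 comparisons of days, with bars of 1 SE from edgeR and filled circles where the adjusted p was under 0.05. From day 4 to day 9, ANKRD1 stands at 9.01 and the other 9 genes between -0.14 and 2.91.

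The sarcomere genes, a list of 22 genes of the thick and thin filaments, Z-disc and M-band, rose in several steps. Between days 4 and 9, 13 of the 20 tested rose (median log2 fold change 1.72), with the largest increases in the light chains MYL4 (7.85, SE 0.23) and MYL7 (7.38, SE 0.83) and in cardiac actin ACTC1 (4.51, SE 0.43). From day 9 to day 11, 16 of the 21 tested rose (median 3.73), led by the myosin heavy chain MYH6 (8.09, SE 0.87), MYBPC3 (7.67, SE 0.86) and CSRP3 (6.20, SE 0.78). From day 11 to day 20, MYL2 (9.42, SE 1.16) and MYH7 (5.37, SE 0.73), the ventricular light chain and the beta myosin heavy chain, passed the test, and the median of 22 genes was 1.34. MYL2 had at most 0.043 CPM in any library of day 11, so the size of its change is imprecise. Between days 0 and 20, 21 of the 22 rose (median 8.07). MYH6 had the highest mean level of the list over all libraries, with 5069 TPM on day 11 and 6864 TPM on day 20, but only 17.7 TPM on day 9, when MYL7 had 569 TPM.

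Most of the rise of ANKRD1 was present earlier than that of the sarcomere genes. The mean log2 CPM of ANKRD1 was highest on day 11, at 9.11, so its rise to day 20 (8.35) was not its largest. Of its rise in mean log2 CPM from day 4 to day 20, 93.1% was there on day 9. For the 21 sarcomere genes called higher on day 20 than on day 0, that share was 30.7% in the median and ranged from -15.6% (TCAP) to 74.8% (MYL4), so that each had a smaller share than ANKRD1. For the other members called higher on day 20, it was 141% for AMOTL2, which was lower on day 20 than on day 9, 98.6% for TEAD1 and 43.5% for WWTR1. The 9 further YAP/TAZ targets called higher had 47.6% in the median (-14.4% to 112%). Of these, GADD45A (104%), TGFB2 (109%), ARHGEF17 (112%) and MYOF had a larger share than ANKRD1, and the others had 47.6% or less. Among the 6 cardiomyocyte markers the median was 20.4%, from -11.8% (SLC8A1) to 95.3% (NPPB, a natriuretic peptide gene). A share as large as that of ANKRD1 was thus seen in 1 of these cardiac genes, NPPB, and in no sarcomere gene. It was also seen in AMOTL2, TEAD1 and the further targets named above. This measure was chosen after the values had been seen and has no test.

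**Figure D3:**
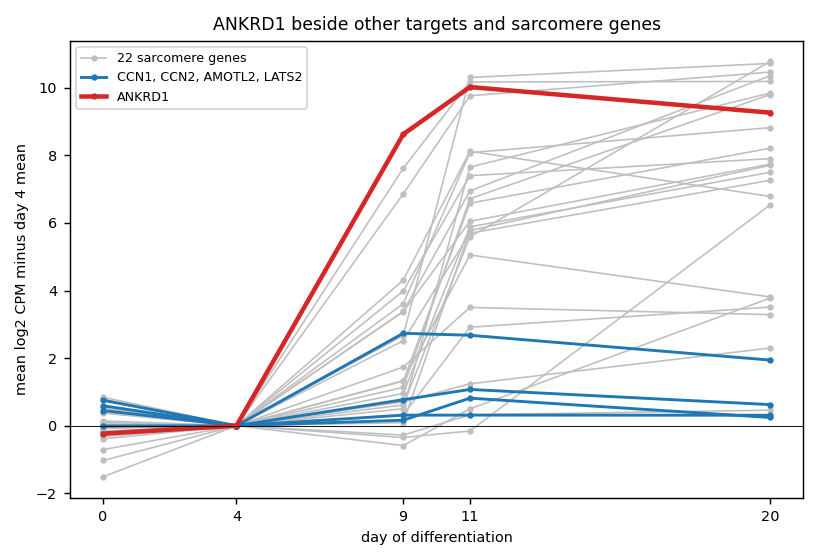
Mean log2 CPM of each gene minus its day 4 mean, by day of differentiation, for ANKRD1 (red), the other 4 targets (blue) and 22 sarcomere genes (gray), 3 libraries per day. On day 9 ANKRD1 is above all of them at 8.62, with the highest sarcomere gene, MYL4, at 7.62 and the highest other target, AMOTL2, at 2.73.

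The gap between ANKRD1 and each list changed over the days. On the length-corrected scale of log2(TPM + 1), chosen after the values had been seen, ANKRD1 stood against the mean of CCN1, CCN2, AMOTL2 and LATS2 at -5.10 ± 0.91 on day 0, -4.62 ± 0.41 on day 4, 2.12 ± 0.41 on day 9, 3.30 ± 0.81 on day 11 and 2.98 ± 1.73 on day 20 (SD, n = 3). Against the mean of the 22 sarcomere genes it stood at -1.16 ± 0.36 on day 0, -1.10 ± 0.22 on day 4, 4.86 ± 0.64 on day 9, 3.01 ± 0.61 on day 11 and 0.82 ± 0.60 on day 20. ANKRD1 was below both means up to day 4 and above both from day 9 on, and its gap to the sarcomere mean was widest on day 9. The zero of the gap depends on the unit, since on log2 CPM, which is not corrected for length, ANKRD1 stood at -0.47 ± 0.60 against the sarcomere mean on day 20.

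Across all 15 libraries, ANKRD1 was in the median more like the sarcomere genes than like the other targets, although single genes of both kinds came close to it. The Pearson r of log2 CPM with ANKRD1 had a median of 0.83 over the 22 sarcomere genes (0.36 to 0.98) and 0.36 over the other 4 targets, and 0.56 over 17 further YAP/TAZ targets (-0.91 to 0.96), beside 0.035 over 24766 genes. By gene, r was 0.87 for AMOTL2, 0.36 for LATS2, 0.36 for CCN1 and 0.16 for CCN2. Of the further targets, GADD45A (0.96), MYOF (0.95), TGFB2 (0.95) and ARHGEF17 (0.91), named after their values were seen, were above the sarcomere median. Of the regulators, TEAD1 and WWTR1 both had 0.87, YAP1 0.76, TEAD2 -0.59 and TEAD4 -0.65. These are descriptions, since the 15 libraries share 5 days, their scaling and their lanes. Over the 5 day means, the medians were 0.84 for the sarcomere genes, 0.79 for the 4 targets and 0.82 for the further targets. By gene r was 0.996 for LATS2, above every sarcomere gene, 0.954 for AMOTL2, 0.632 for CCN1 and 0.241 for CCN2. The size of a change does not enter r. Relative to day 4, LATS2 stood at 0.31 in mean log2 CPM on days 9, 11 and 20, and ANKRD1 at 8.62, 10.0 and 9.26. On log2(TPM + 1) the medians over the day means changed order, to 0.83 for the sarcomere genes and 0.87 for the 4 targets.

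The 5 genes most like ANKRD1 over the 15 libraries, among 11885 protein-coding genes with at least 10 CPM on 1 day, had r from 0.984 to 0.986. They were DPF3, a chromatin-remodeling subunit of heart and muscle, UNC45B, a myosin chaperone, JPH2, which joins the sarcoplasmic reticulum to the T-tubules, TRIM55, a sarcomere-associated ubiquitin ligase, and MYL4, the atrial light chain. All 5 rose from day 4 to day 9, by 4.65 (JPH2) to 7.88 (UNC45B) on the log2 scale. Since they were chosen by likeness to ANKRD1 in the same libraries, a rise in this step follows from the choice. Over the deviations of the libraries from their day means, r was 0.57 for DPF3, 0.92 for UNC45B, 0.72 for JPH2, 0.77 for TRIM55 and 0.89 for MYL4. DPF3 went from 0.175 CPM on day 4 to 23.0 CPM on day 9 and 55.9 CPM on day 11. In this ranking TEAD1, WWTR1 and AMOTL2 stood at places 689, 690 and 696, CCN1 at 3709 and CCN2 at 4603.

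CCN1 and CCN2 were each other's nearest gene in the same ranking, with r = 0.88 over the 15 libraries, 0.82 over the day means and 0.91 over the deviations of the libraries from their day means. The next genes for CCN1 were SRF (0.80), the serum response factor, and CSK (0.78), a kinase that restrains SRC, and for CCN2 TRMT44 (0.85) and ZFYVE27 (0.81). Both were highest in replicate 2 on days 0, 9 and 11 and in replicate 1 on day 20.

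Within days, ANKRD1 varied with the sarcomere genes. After the day mean was taken from each library, r with ANKRD1 over the 15 deviations had a median of 0.66 over the sarcomere genes (0.45 to 0.91), and was 0.38 for CCN2, 0.23 for CCN1, -0.075 for AMOTL2 and -0.22 for LATS2. Of these 15 deviations, 6 are of days 0 and 4, where ANKRD1 had only 3 to 19 raw counts per library. Over the 9 deviations of days 9, 11 and 20, a choice added after the values had been seen, the median was 0.82 over the sarcomere genes (0.44 to 0.96), and r was 0.71 for CCN2, 0.47 for CCN1, 0.14 for AMOTL2 and -0.30 for LATS2. On days 9 and 11 the library highest in ANKRD1, replicate 2 in both, was also highest in CCN1, CCN2 and the sarcomere mean. On day 20 ANKRD1 was highest in replicate 2, the library of low RNA integrity, where CCN1, CCN2, AMOTL2 and LATS2 were lowest in CPM. In TPM, CCN2 was lowest in replicate 3 (94.9, against 124 in replicate 2), and CCN1, AMOTL2 and LATS2 were still lowest in replicate 2. ANKRD1 was lowest in replicate 3, where the sarcomere mean was lowest too. In log2 CPM the sarcomere mean was highest on day 20 in replicate 1, as were CCN1, CCN2 and AMOTL2. The summed TPM of the 22 sarcomere genes was highest in replicate 2, at 39261, with 35451 in replicate 1 and 9611 in replicate 3. Over the deviations of all days, the medians without day 20 replicate 2 were 0.73 for the sarcomere genes and 0.35 for the 4 targets. With all 15 libraries they were 0.66 and 0.076.

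The marker lists differed between these libraries too, not in the same way on each day. Day 9 replicate 2, highest in ANKRD1, had 2379 TPM of mesenchymal markers against 791 and 904 TPM in the other libraries of that day, and 155 TPM of cardiomyocyte markers against 144 and 102 TPM. Day 11 replicate 2, highest in ANKRD1, had 2340.4 TPM of cardiomyocyte markers where the other libraries had 585 and 416 TPM, and 1254 TPM of mesenchymal markers against 3428 and 7372 TPM. Day 20 replicate 3, lowest in ANKRD1, had 785 TPM of cardiomyocyte markers against 3603 and 3377 TPM, and the most mesenchymal markers. Day 20 replicate 2, highest in ANKRD1, was thus second in cardiomyocyte markers. None of the cardiomyocyte or mesenchymal markers was at 0 on days 9 to 20. YAP1 went the other way, with r = -0.79 to ANKRD1 over the 15 deviations and -0.75 over the 9. In CPM it was lowest in replicate 2 and highest in replicate 3 on days 11 and 20. On day 9, however, both genes were lowest in replicate 3. In TPM, YAP1 had 154, 155 and 182 in day 20 replicates 1 to 3, so that replicate 2 was not the lowest. The TMM scaling factor of day 20 replicate 2 was 1.42, where those of the other libraries were 0.894 to 1.08. The part of the marker differences and of the scaling in the values of ANKRD1 and YAP1 was not tested.

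**Figure D4:**
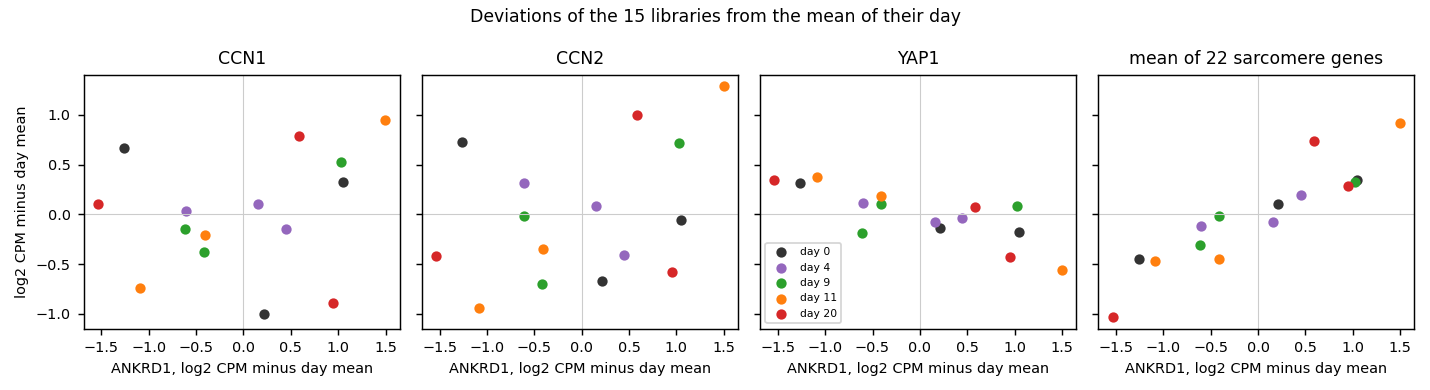
Deviation of each of the 15 libraries from the mean of its day, in log2 CPM, for ANKRD1 (horizontal axis) against CCN1, CCN2, YAP1 and the mean of 22 sarcomere genes (vertical axis), colored by day. The sarcomere mean rises with ANKRD1, and over the 15 libraries r is -0.79 for YAP1, 0.23 for CCN1 and 0.38 for CCN2. Over the 9 libraries of days 9, 11 and 20, r is -0.75 for YAP1, 0.47 for CCN1 and 0.71 for CCN2.

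A second list of 17 genes known as YAP/TAZ targets in other cells was also mixed. Of these, 9 rose, DOCK5 fell (-1.25, SE 0.11) and 7 did not pass the test, with a median of 0.51, between days 4 and 9. The largest increases were in FOXF2 (8.27, SE 0.42), a mesenchymal transcription factor, TGFB2 (3.72, SE 0.67), a growth factor of the developing heart, and MYOF (3.61, SE 0.25), a membrane repair protein. FOXF2 had at most 0.087 CPM in any library of day 4, so the size of its increase is imprecise. From day 9 to day 11 only CCDC80 rose (3.72, SE 0.49), and from day 11 to day 20 none passed. Over the whole course, from day 0 to day 20, 9 of the 16 tested rose and DOCK5 fell (-0.81, SE 0.26), with a median of 1.64. IGFBP3, which binds insulin-like growth factors, had the highest mean level of the list, at 459.7 TPM on day 20.

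Known targets of SRF, which shares many genes with YAP/TAZ, split as well. Of 10, 4 rose from day 4 to day 9, led by the smooth muscle genes ACTA2 (3.91, SE 0.82), MYL9 (2.29, SE 0.26) and TAGLN (2.22, SE 0.31), and 4 fell, with the largest decreases in FHL2 (-1.05, SE 0.15), VCL (-0.96, SE 0.16) and EGR1 (-0.95, SE 0.21). ACTA2 rose again from day 9 to day 11 (4.18, SE 0.80). By day 20, compared with day 0, 5 rose and FLNA, the most abundant of the list at 1406 TPM on day 0, fell (-2.23, SE 0.48).

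Of 5 relatives and partners of ANKRD1, titin (TTN) rose from day 4 to day 9 (3.39, SE 0.23) and again to day 11 (2.85, SE 0.46). MYPN, the gene of myopalladin, which anchors CARP to titin, came later, with at most 0.114 CPM in any library up to day 9, a mean of 0.507 CPM on day 11 and 26.1 CPM on day 20 (log2 5.73, SE 0.78, adjusted p = 0.0221). ANKRD23, a relative with 1.10 CPM on day 4, fell to 0.502 CPM on day 9 (-1.06, SE 0.37, adjusted p = 0.0428). Desmin (DES) rose from day 0 to day 20 (3.43, SE 0.63).

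Some values carry limits of the annotation. Exons of YAP1, WWTR1, TEAD2 and CCN2 overlap those of a gene on the opposite strand and exons of AMOTL2 those of a pseudogene on its own strand, and the strand setting of the counting was not stated. The deposited TPM of CCN1 imply a length of 2455 bases, whereas its annotated exons sum to 3698 bases. A single short gene took 20.0% of all TPM in day 0 replicate 3 and 17.0% in day 9 replicate 1, which lowers the TPM of every other gene there.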

How the data were processed

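Bulk RNA-seq of 15 H1 libraries (days 0, 4, 9, 11 and 20, 3 per day by the labels) was analysed. The methods name day 7 and not day 9. Per the methods and the submitters' processing notes, the authors aligned reads of rRNA-depleted total RNA to hg38 with STAR 2.5.2b and counted them per gene with featureCounts 1.5.1. The table of raw counts was deposited after rRNA and mitochondrial genes had been taken out. TPM were computed from it by the authors, who do not state the lengths used. The authors' sample table adds an RNA integrity score and the uniquely mapped fraction of each library.

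Counts were tested in edgeR 4.0.16 (R 4.3.3) with a robust quasi-likelihood fit and TMM scaling after filterByExpr (count of 10, total of 15), using the 6 libraries of the days compared, or all 15 for the test of any difference. Tests were two-sided, the Benjamini-Hochberg adjustment covered all genes tested, and calls were made at 0.05. SE was taken as the absolute log2 fold change over the root of F. Log2 CPM had a prior count of 2, and p-values measure the spread between libraries. The 10 genes, lists and comparisons were chosen with earlier results of these data known. Of each other list, at most the 3 largest called changes in each direction and the gene of highest mean level are named. Gene coordinates come from the GENCODE annotation of GRCh38 and upstream sequences from RefSeq. The fits were tested on simulated counts. Alternatives were DESeq2 1.42.0, upper-quartile scaling, no filter, limma 3.58.1 on log2(TPM + 1), one fit of all libraries, each replicate left out, and lane or plate as a block.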

Additional observations from a re-analysis of the deposited data

How the results depend on the processing

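The number of the 10 genes called moved with the settings. From day 4 to day 9 it was 6, and 5 to 7 under every alternative. With no filter it was 1 (reported 0) from day 0 to day 4, where CCN1 was called, and 3 (reported 5) from day 0 to day 20. From day 9 to day 11, DESeq2 and the plate as a replicate block each called 1 (reported 0), TEAD4. From day 11 to day 20, DESeq2 and the fit of all 15 libraries each called 2 (reported 0), WWTR1 and TEAD2. Leaving out single replicates gave 0 to 0 from day 0 to day 4 and from day 9 to day 11, 0 to 1 from day 11 to day 20 and 3 to 7 from day 0 to day 20, with 3 without day 0 replicate 1 or 3 and 7 without day 20 replicate 2. Over all genes, edgeR called 288 up and 207 down from day 9 to day 11 and DESeq2 945 up and 726 down, with 1171 up and 800 down with plate as a block and 0 up and 0 down without day 9 replicate 1 (2366 at an unadjusted p under 0.05), and from day 11 to day 20 239 up and 93 down against 1305 up and 559 down with DESeq2, 2078 up and 1054 down with all 15 libraries and 2 up and 1 down with plate as a block, and 0 up and 0 down without day 11 replicate 1 or replicate 3 (2382 and 2827 at an unadjusted p under 0.05) and 0 up and 1 down without replicate 2. The fit of all 15 libraries called 2939 up and 3270 down from day 4 to day 9 (reported 5162 up and 5244 down) and 6279 up and 4506 down from day 0 to day 20 (reported 3536 up and 2491 down). Without the filter the median of all genes from day 0 to day 20 was 0.91 (reported 0.11). Lane and plate were not taken as pairing the libraries, since no step had 3 pairs that all correlated above 0.1. After day means were removed, libraries of 1 lane correlated with a mean r of -0.016, 0.074 and -0.26 at the 3 steps from day 4 on, and libraries of 1 plate with 0.20 and 0.072 at the last 2, where both pairs from day 9 to day 11 were positive (0.10 and 0.30). The lane as a block changed no call of the 10 genes.

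The sign of uncalled log2 fold changes turned in these cases, and the cause was not tested. From day 0 to day 4, limma on log2(TPM + 1) gave 0.042 for YAP1 and 0.065 for LATS2, DESeq2 -0.0081 for TEAD1, and LATS2 was 0.012 with upper-quartile scaling, 0.012 with no filter and 0.0093 with all 15 libraries. TEAD4 was -0.023 from day 4 to day 9 with all 15 libraries. From day 9 to day 11, limma gave 0.0025 for TEAD2 and 0.038 for LATS2, and the plate block 0.077 for TEAD2, -0.28 for CCN1 and -0.035 for CCN2. From day 11 to day 20, TEAD1 was -0.0077 with no filter, and the plate block gave 0.15 for CCN1 and 0.11 for CCN2. CCN1 was 0.17 from day 0 to day 20 with limma.

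Leaving out single replicates also turned signs, with these ranges. From day 0 to day 4 they were -0.11 to 0.11 for YAP1, -0.055 to 0.26 for WWTR1, -0.11 to 0.25 for TEAD1, -0.71 to 0.017 for TEAD4, -0.35 to 0.82 for ANKRD1 and -0.073 to 0.068 for LATS2. From day 4 to day 9 they were -0.049 to 0.13 for TEAD4 and -0.11 to 0.60 for CCN2. From day 9 to day 11 they were -0.34 to 0.13 for TEAD1, -0.14 to 0.085 for TEAD2, -0.21 to 0.73 for CCN1, -0.088 to 1.28 for CCN2, -0.45 to 0.35 for AMOTL2 and -0.14 to 0.15 for LATS2. From day 11 to day 20 they were -0.10 to 0.41 for TEAD1, -1.31 to 0.28 for ANKRD1, -0.94 to 0.13 for CCN1, -1.38 to 0.21 for CCN2 and -0.15 to 0.51 for LATS2, and from day 0 to day 20 -0.61 to 0.22 for CCN1 and -0.96 to 0.15 for CCN2.

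The median r of the 4 targets with ANKRD1 minus that of the sarcomere genes was -0.46 over the 15 libraries, and -0.27 on log2(TPM + 1), -0.56 with CCN1 and CCN2 alone and -0.53 to -0.21 without 1 day 20 replicate. Over the 5 day means it was -0.049, and 0.041 on log2(TPM + 1), -0.35 by Spearman's rho, -0.41 with CCN1 and CCN2 alone and -0.24 to -0.065 without 1 day 20 replicate. Over the deviations from the day means it was -0.59, and -0.36 with CCN1 and CCN2 alone and -0.65 to -0.38 without 1 day 20 replicate, and -0.52 over days 9, 11 and 20 only, an alternative added after seeing the data.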
